A study of Mus musculus with 2 samples.

Results

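The neutrophils described here are 74 cell barcodes of 12951 kept from the ventricles of 2 healthy mice, which is 0.571% of the kept barcodes. They were chosen by their own transcripts. A barcode was kept when it held at least 500 unique molecular identifiers (UMIs, counted mRNA molecules) with at most 10% of them mitochondrial. It was taken as a neutrophil when S100a8 and S100a9 together gave at least 50 UMIs, the complement genes C1qa, C1qb and C1qc (macrophages) gave at most 3, Dcn (fibroblasts) gave at most 3, and Pecam1 with Cdh5 (endothelium) gave at most 1. S100a8, S100a9 and the genes of the upper limits therefore describe the choice and support nothing. Mouse 1 gave 72 of the cells and mouse 2 gave 2.

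Both animals, aged 10 to 12 weeks, were wild type on the C57BL/6 background with no treatment named, and each gave 1 droplet library made with the 3' chemistry of version 2. The hearts were perfused and dissociated, the atria were discarded, heart muscle cells were spun out, red cells were lysed, and the cells sorted were those that excluded a dead-cell dye. The tables held 7732 and 6367 barcodes with 21355383 and 15174548 UMIs for mouse 1 and mouse 2. The lowest barcode held 943 and 828 UMIs, so the minimum of 500 removed none, and the mitochondrial limit removed 717 and 431. The 2 libraries shared 65 barcode sequences, 1 of them that of a neutrophil. Sex was not given, and there was no second condition: the mice are 1 group, so no test between conditions was possible, and no p-value is reported.

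Neutrophils are short-lived phagocytes that are made in the bone marrow, circulate in blood and enter tissues within hours of infection or injury. Their granules are filled in sequence as they mature: primary granule proteins such as myeloperoxidase and elastase are transcribed in promyelocytes, secondary granule proteins such as lactoferrin and cathelicidin in myelocytes, and gelatinase last, after which the mature cell keeps the proteins but little of the mRNA. Mature neutrophils carry little RNA, and S100A8 and S100A9, which pair as calprotectin and bind calcium and zinc, are among their most abundant cytosolic proteins. In an unperfused or incompletely flushed heart, neutrophils of the blood and of the tissue arrive in the same suspension, and transcripts do not tell them apart.

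The number of neutrophils differed between the animals. They made up 1.03% of the 7015 kept barcodes of mouse 1 (exact Clopper-Pearson 95% interval 0.804 to 1.29) and 0.0337% of the 5936 of mouse 2 (0.00408 to 0.122). These intervals cover counting error only, and with 1 library per mouse the animal, its flushing and its library cannot be told apart. The choice did not depend on the exact S100 minimum: in mouse 1 the 3 lowest members held 111, 115 and 137 S100a8 plus S100a9 UMIs, and the 3 highest barcodes outside that met every other limit held 15, 7 and 7. In mouse 2 the members held 343 and 235, and no barcode outside that met the other limits held more than 1. Another 35 kept barcodes of mouse 1 had at least 50 such UMIs but broke another limit, 21 of them the C1q limit, 13 the Dcn limit and 4 the endothelial limit, with 3 breaking more than 1. Scrublet, which looks for doublets, marked 1 of the 72 neutrophils of mouse 1 and 18 of those 35, against 5.20% of all kept barcodes of that library.

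**Figure D1:**
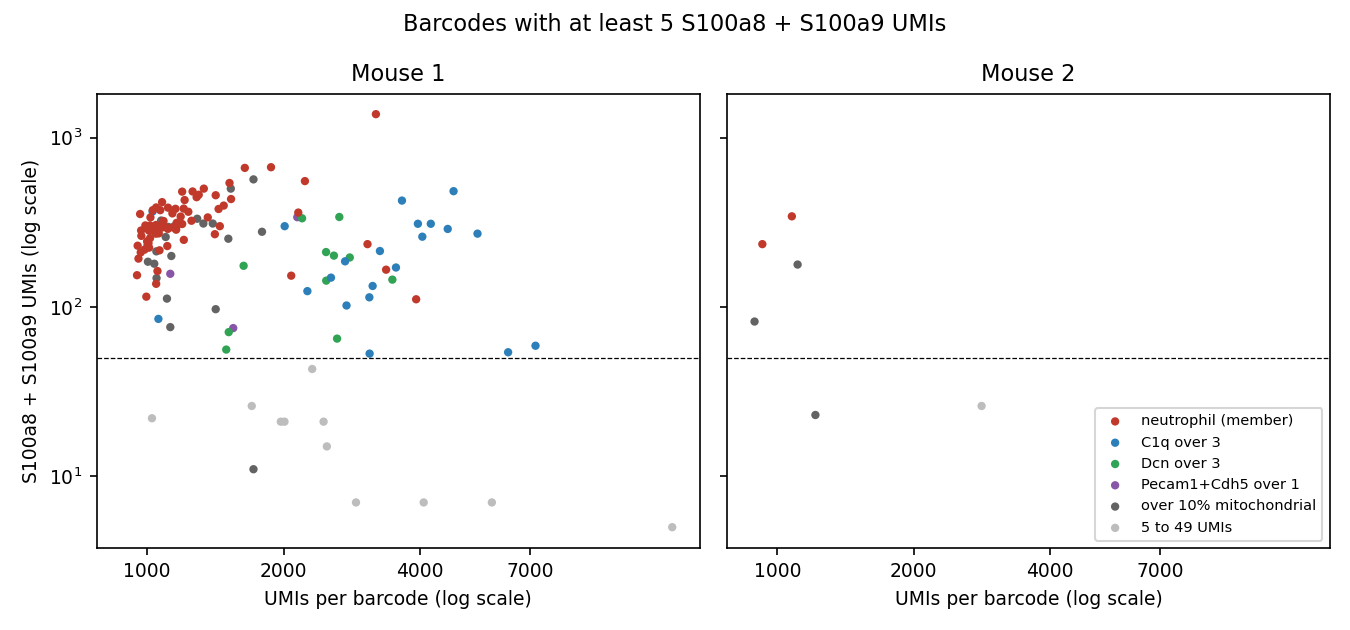
Each point is a barcode with at least 5 S100a8 plus S100a9 UMIs, placed by its total UMIs and its S100 UMIs (both on log scales), for mouse 1 and mouse 2. The 72 neutrophils of mouse 1 lie between 111 and 1377 S100 UMIs, most of them near the left end of the depth axis, and mouse 2 has 2; other colours mark the limit a barcode broke, and the dashed line marks 50 S100 UMIs.

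The neutrophils of mouse 1 were small libraries near the lowest depth of the table. They held 950 to 3925 UMIs with a median of 1111.5, against a median of 2901 in monocytes and 2864.5 in C1q macrophages of the same mouse. Genes detected per neutrophil ran from 307 to 1415 with a median of 412, against medians of 1253 in monocytes and 1196 in C1q macrophages. Of the 72 neutrophils, 20 (27.8%, exact interval 17.9 to 39.6) lay within 10% of the shallowest barcode deposited. So did 0 of 41 monocytes, 0.656% of C1q macrophages, 0.796% of fibroblasts, 4.30% of endothelial cells and 3.25% of all kept barcodes of mouse 1. The depth limit that set this lowest barcode is not given in the sources used here, and how many shallower neutrophils it left out was not tested. After the 10% mitochondrial limit, the median mitochondrial share was 2.45% in neutrophils, 2.46% in monocytes and 3.795% in C1q macrophages. That limit fixes the upper end of these shares. In mouse 1 it removed 717 of 7732 barcodes, and 17 of those met every other limit for neutrophils.

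The label was checked against markers that the choice did not use. Retnlg, which encodes a resistin-like secreted protein of mouse granulocytes, was found in 70 of the 72 neutrophils of mouse 1 and in both of mouse 2. Of the further neutrophil markers, Hdc (histamine synthesis) was found in 57 of 72, Il1r2 (a decoy receptor for interleukin 1) in 56, Cxcr2 (receptor of the CXCL chemokines) in 49, Mmp9 (gelatinase B) in 35, Csf3r (the G-CSF receptor) in 32 and Ly6g (the surface antigen used to sort mouse neutrophils) in 24. G0s2 (an inhibitor of lipolysis) was found in 23 and Trem1 (which amplifies inflammation) in 16. Retnlg, Cxcr2 and Ly6g were rare in fibroblasts of mouse 1, which should lack them and were sequenced more deeply (median 2757 UMIs). There 2.90% had a Retnlg UMI, 0.398% a Cxcr2 UMI and 0.114% a Ly6g UMI. Erythrocyte and platelet genes were at 0 for all 10 listed, and the eosinophil, basophil and mast cell list of 15 genes gave 3 UMIs in the 72 cells, with Siglecf, Epx, Prg2, Ccr3, Mcpt8 and Cpa3 at 0. The T and NK cell list and the B cell list gave 1 UMI each.

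Some members did not match the label as well as the rest. The 7 deepest neutrophils of mouse 1 had 2080 to 3925 UMIs, the next had 1877, and those 7 held 21.1% of the UMIs of all 72. They fell into different kinds. Cell 1 of the S100 ranking (3199 UMIs, 876 of S100a8 and 501 of S100a9) held 122 of the 133 Ngp UMIs, 109 of the 110 Camp UMIs and all 46 Ltf UMIs of the 72 cells. Cells 57 and 66 had no Retnlg UMI and an unequal pair, with 213 and 135 S100a8 UMIs beside 22 and 31 of S100a9. They carried monocyte genes in place of Retnlg: 28 and 6 UMIs of Plac8, 9 and 2 of Ms4a6c, 2 and 8 of Ly6c2, and 1 and 4 of Ccr2. Without their S100 UMIs both would have met the limits set here for monocytes, so their transcripts go against the name neutrophil.

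Cell 72 (3925 UMIs) held 224 of the 225 Retnla UMIs, 123 of the 147 Cd74 UMIs and 31 of the 46 H2-Aa UMIs, which are genes of antigen-presenting and alternatively activated macrophages, beside 6 UMIs of Retnlg and 7 of Hdc. Cells 4, 24 and 69 carried 31, 18 and 35 UMIs of Fabp4 and 13, 9 and 7 of Cd36, both capillary endothelial genes, beside 53, 41 and 5 of Retnlg, and cell 69 was the one that Scrublet marked. In all, 6 neutrophils with 8 or more Fabp4 UMIs held 111 of the 134 found, and 50 had none. Among these 6 were cells 54, 67 and 71, all under 2000 UMIs, with 10, 9 and 8 UMIs of Fabp4 and 9, 6 and 4 of Cd36. The 65 neutrophils of mouse 1 other than the 7 deepest were all under 2000 UMIs and held 47 of the 134 Fabp4 UMIs. Each of the 65 had a Retnlg UMI, and they had a median of 1087 UMIs and 408 genes. Their S100 shares were 11.5% or more, which describes the choice and supports nothing. The cut at 2000 UMIs was drawn after the data were seen. Several of the list counts are given with and without these 7 deeper cells.

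**Figure D2:**
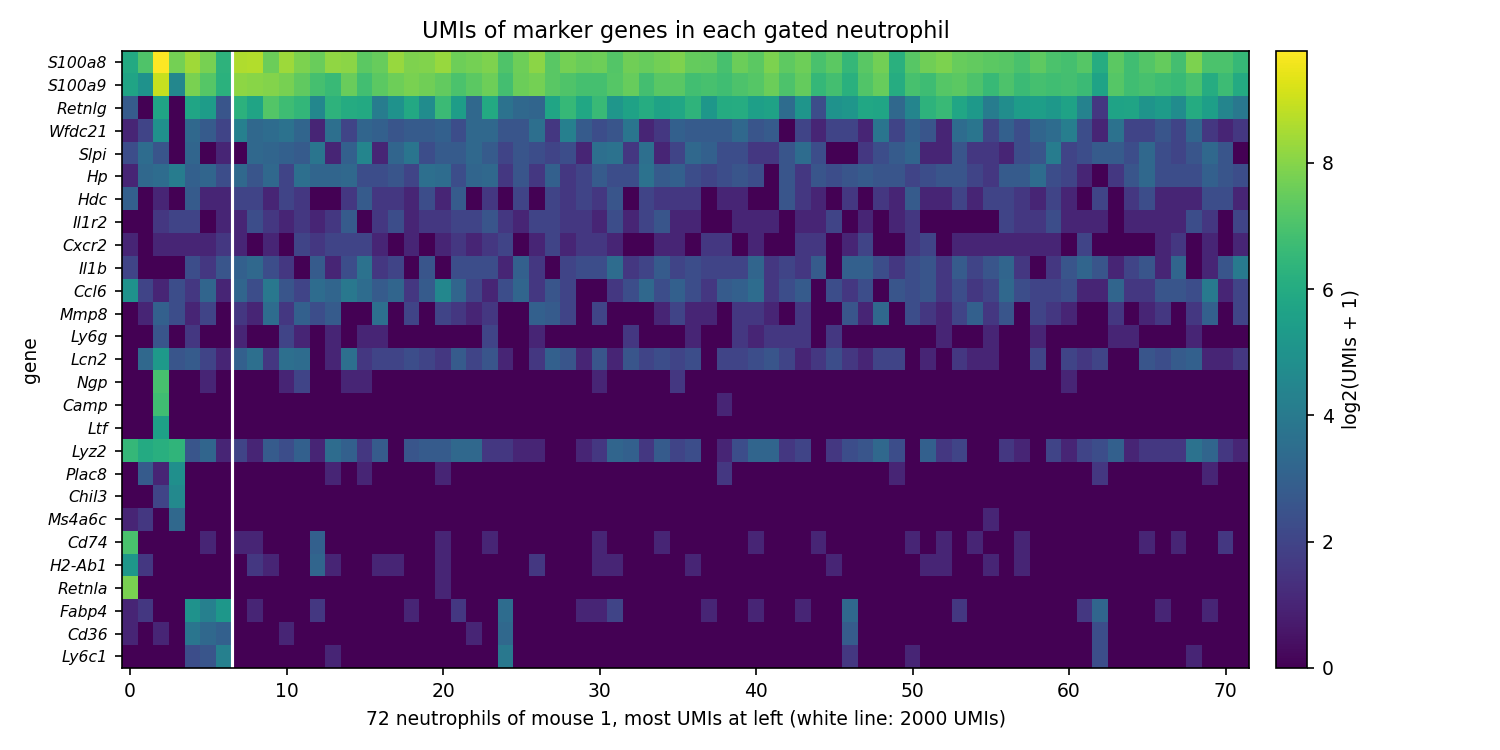
Columns are the 72 neutrophils of mouse 1 from most to fewest UMIs, rows are genes, and colour is log2(UMIs + 1). S100a8, S100a9 and Retnlg run across nearly all columns, while Ngp, Camp, Ltf, Plac8, Cd74 and Retnla are concentrated in the 7 cells left of the line at 2000 UMIs. Of the 134 Fabp4 UMIs, 47 lie right of that line.

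S100a8 and S100a9 were the 2 most abundant transcripts of the neutrophils, with 13997 and 10139 UMIs in mouse 1, or 14.7% and 10.7% of all UMIs. Per cell, S100a8 ran from 60 to 876 UMIs with a median of 179, and S100a9 from 22 to 501 with a median of 129.5. Together they took 2.83% to 43.0% of a cell's UMIs, with a median of 27.0%. Over the 72 cells the shares of UMIs of the 2 genes had a Spearman rho of 0.73, given as a description since the cells share a library and both genes were used to choose them. The pair lies on chromosome 3 of the mouse genome (GRCm38.p6, the build of mm10), S100a8 at 90669071 to 90670034 on the plus strand and S100a9 at 90692630 to 90695721 on the minus strand, with 22595 bases between them.

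Retnlg was the 4th most abundant transcript, after Malat1 (a nuclear long noncoding RNA), with 3200 UMIs or 3.37% of the total. Per cell it ran from 0 to 143 UMIs with a median of 44.5. It lies on chromosome 16 at 48872608 to 48874498 on the plus strand. Its share of a cell's UMIs followed that of the S100 pair loosely across the 72 cells (Spearman rho 0.42), which include cells 57 and 66 with no Retnlg UMI. Next came Tmsb4x (an actin-binding thymosin) with 2221 UMIs and S100a11 (another calcium-binding S100 protein) with 1177, found in all 72 cells with 4 to 36 UMIs each and a median of 16.

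S100a8 and S100a9 were used to choose the cells, Retnlg was not, and these 3 genes gave the largest protein-coding counts in them. The 250 bases upstream of their annotated starts are shown for that reason. They are RefSeq sequences on GRCm38.p6, read 5′ to 3′ on the strand of the gene. Capitals mark matches, on either strand, to TATAAA (the TATA box), TTGCNNAA (a core of sites bound by C/EBP factors, which drive granulocyte genes) and GAGGAA (a core of sites bound by PU.1 and other ETS factors).
S100a8 (chr3:90668821-90669070, plus strand): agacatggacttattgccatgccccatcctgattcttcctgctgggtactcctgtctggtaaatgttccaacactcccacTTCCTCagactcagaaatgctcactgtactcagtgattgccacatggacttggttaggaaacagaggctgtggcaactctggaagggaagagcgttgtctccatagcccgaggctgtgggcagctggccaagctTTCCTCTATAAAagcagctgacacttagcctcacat
S100a9 (chr3:90695722-90695971, minus strand): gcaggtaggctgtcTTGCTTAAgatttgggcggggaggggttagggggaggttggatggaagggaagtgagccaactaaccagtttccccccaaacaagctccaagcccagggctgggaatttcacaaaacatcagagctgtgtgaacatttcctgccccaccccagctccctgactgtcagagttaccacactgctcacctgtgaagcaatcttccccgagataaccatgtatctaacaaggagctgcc
Retnlg (chr16:48872358-48872607, plus strand): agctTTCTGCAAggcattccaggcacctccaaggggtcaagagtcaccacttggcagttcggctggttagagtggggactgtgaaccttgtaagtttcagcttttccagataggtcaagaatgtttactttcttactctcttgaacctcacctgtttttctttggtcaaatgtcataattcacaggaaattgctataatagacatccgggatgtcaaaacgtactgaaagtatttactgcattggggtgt
The S100a8 window holds TATAAA 30 to 25 bases before the start, and GAGGAA on the minus strand at 36 to 31, directly before it, and at 170 to 165. The S100a9 window holds TTGCNNAA at 236 to 229 on the plus strand, and the Retnlg window holds it on the minus strand at 246 to 239. Of 32536 upstream windows of the same length, 12.3% hold TATAAA, 9.57% hold TTGCNNAA and 23.4% hold GAGGAA. A match of letters is a description and shows no bound factor.

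Neutrophils were next set against 2 other myeloid cell sets of mouse 1. C1q macrophages, the resident phagocytes of the heart, were 3048 kept barcodes with at least 20 C1q UMIs. Monocytes, the other blood-borne myeloid cells, were 41 kept barcodes with at least 2 Ly6c2 UMIs, 5 of Lyz2 and 1 of Ccr2 or F13a1. Both sets had fewer than 50 S100a8 plus S100a9 UMIs and met the fibroblast and endothelial limits, and monocytes met the C1q limit too. UMIs were summed over the cells of a set and given as CPM (UMIs scaled to a common total, so that 3 of the 95002 neutrophil UMIs are 31.6 CPM), genes of at least 100 CPM on either side were compared, and a gene was counted as higher or lower when the ratio reached 4-fold. Genes used to choose either set were left out. Brackets give exact 95% intervals of the ratio from the summed UMIs, which cover counting error only. A set with no UMI was given 3 UMIs, so that such a ratio is a bound.

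Against C1q macrophages, 193 of 1627 genes (11.9%) were at least 4-fold higher in neutrophils and 350 (21.5%) at least 4-fold lower, with a median log2 ratio of -0.83. Against monocytes, 134 of 1674 genes (8.0%) were at least 4-fold higher and 397 (23.7%) at least 4-fold lower, with a median log2 ratio of -1.03. The balance of directions depended on the scaling. Higher genes made up 35.5% of the calls against C1q macrophages, 50.4% when totals left S100a8 and S100a9 out and 63.4% with median-of-ratios size factors, which shift every log2 ratio by 0.42 and 0.78. Against monocytes the shares were 25.2%, 39.7% and 69.1%, with shifts of 0.42 and 1.03. Log2 ratios below are therefore to be read against the medians of -0.83 and -1.03, and the list counts against the shares of all genes. Median-of-ratios factors made 287 of 1627 and 273 of 1674 genes higher and 166 and 122 lower, and some list counts below are also given under them. Over the 65 cells under 2000 UMIs, 206 of 1636 genes were higher and 493 lower than in C1q macrophages. Against monocytes 143 of 1688 were higher and 523 lower. List counts over the 65 cells are to be read against these.

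A neutrophil whose granules are complete would hold little granule mRNA, and the lists of granule genes were read by class. Of 10 primary granule genes, Mpo, Elane, Ctsg, Ms4a3, Prss57, Bpi and Prg3 had no UMI in the 72 cells. Prtn3 (proteinase 3) had 1 UMI, and Ctsc (the protease that activates the granule serine proteases) had 16 in 7 cells, or 168 CPM in neutrophils, against 921 CPM in monocytes and 1264 CPM in C1q macrophages. Ctsc was 5.47-fold lower than in monocytes (3.23 to 9.88) and 7.51-fold lower than in C1q macrophages (4.62 to 13.1), and the first of these did not reach 4-fold with median-of-ratios scaling. Over the 65 cells Ctsc had 5 UMIs, and it was 13.8-fold lower than in monocytes, with a log2 ratio of -4.24 against C1q macrophages.

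Secondary granule genes were mostly higher in neutrophils: 10 of 13 compared with C1q macrophages (median log2 ratio 9.86) and 7 of 12 compared with monocytes (3.25), with 0 and 1 lower. Lcn2 (lipocalin 2, which binds bacterial siderophores) was at 2768 CPM in neutrophils, 85.8 CPM in monocytes and 2.84 CPM in C1q macrophages, a ratio of 32.3 over monocytes (17.7 to 65.4) and 976 over C1q macrophages (655 to 1509). Mmp8 (neutrophil collagenase) was at 1726 CPM in neutrophils, 335 CPM in monocytes and 1.79 CPM in C1q macrophages. These 2 genes were spread over the cells, with a UMI in 61 and 49 of 72. Hp (haptoglobin, which binds free haemoglobin) was in 70 cells at 4084 CPM in neutrophils, against 1615 CPM in monocytes, where the ratio was below 4-fold, and 7.67 CPM in C1q macrophages.

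The late-myelocyte genes of the same list came almost wholly from cell 1. Ngp (neutrophilic granule protein) was 1400 CPM over the 72 cells, but 10 UMIs remained in the 65 cells under 2000 UMIs, and Camp (cathelicidin) and Ltf (lactoferrin) had 1 and 0 there. Their ratios over C1q macrophages, each with 1 UMI on that side, accordingly rest mostly on 1 cell: 13324 for Ngp (2351 to 530162) over the 72 cells, and 1269 for Ngp over the 65 cells. Chil3 (a chitinase-like protein) likewise had 23 of 26 UMIs in cell 57. Over the 65 cells the list had 7 of 10 genes higher than in C1q macrophages and 5 of 10 higher than in monocytes, with 1 and 2 lower. Of the tertiary granule genes, 4 of 7 were higher than in C1q macrophages and 3 of 5 than in monocytes, with none lower. The 65 cells gave 4 higher and 2 lower of 7, and 2 higher of 4. The third gene over monocytes was Lyz1 (a lysozyme that may share reads with Lyz2), with 32 of its 33 UMIs in cell 72 and none in the 65 cells. Mmp9 was at 495 CPM in neutrophils, 0 in monocytes and 2.84 CPM in C1q macrophages, at least 21.1-fold over monocytes and 174-fold over C1q macrophages (106 to 291). Arg2 (mitochondrial arginase) was at 232 CPM in neutrophils, 0 in monocytes and 0.53 CPM in C1q macrophages.

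Genes of mature neutrophils formed the list with the most calls. Of 29 compared, 23 were at least 4-fold higher than in C1q macrophages (median log2 ratio 6.99) and 19 than in monocytes (2.93), with 0 lower in either; the counts were the same over the 65 cells. Many of these genes are known as neutrophil markers, so the list describes the identity of the cells. Retnlg was at 33683 CPM in neutrophils, 7.80 CPM in monocytes and 12.1 CPM in C1q macrophages, 2788-fold over C1q macrophages (2314 to 3387). Wfdc21 and Slpi, both small protease inhibitors with antimicrobial activity, were at 4810 and 3947 CPM in neutrophils, 62.4 and 640 CPM in monocytes, and 2.84 and 3.99 CPM in C1q macrophages. Pglyrp1, which binds bacterial peptidoglycan, was in 65 of 72 cells and 54.4-fold over monocytes (24.6 to 150).

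Il1r2 was at 1242 CPM in neutrophils, 7.80 CPM in monocytes and 3.99 CPM in C1q macrophages, and Hdc at 1495, 7.80 and 0.74 CPM. Mxd1, a MYC antagonist of post-mitotic cells, was 51.3-fold over monocytes (13.7 to 431) and 86.5-fold over C1q macrophages (62.8 to 119). G0s2, an inhibitor of lipolysis, was 68.8-fold over monocytes (11.8 to 2770) and 82.4-fold over C1q macrophages (55.8 to 121). Some of the list were shared with monocytes: Ifitm6, an interferon-induced membrane protein gene, was at 1126 CPM in neutrophils, 1170 CPM in monocytes and 29.9 CPM in C1q macrophages. Gm5483, Stfa2l1 and BC100530, stefin A genes of a near-identical family, had 63, 19 and 13 UMIs in neutrophils and may share reads.

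**Figure D3:**
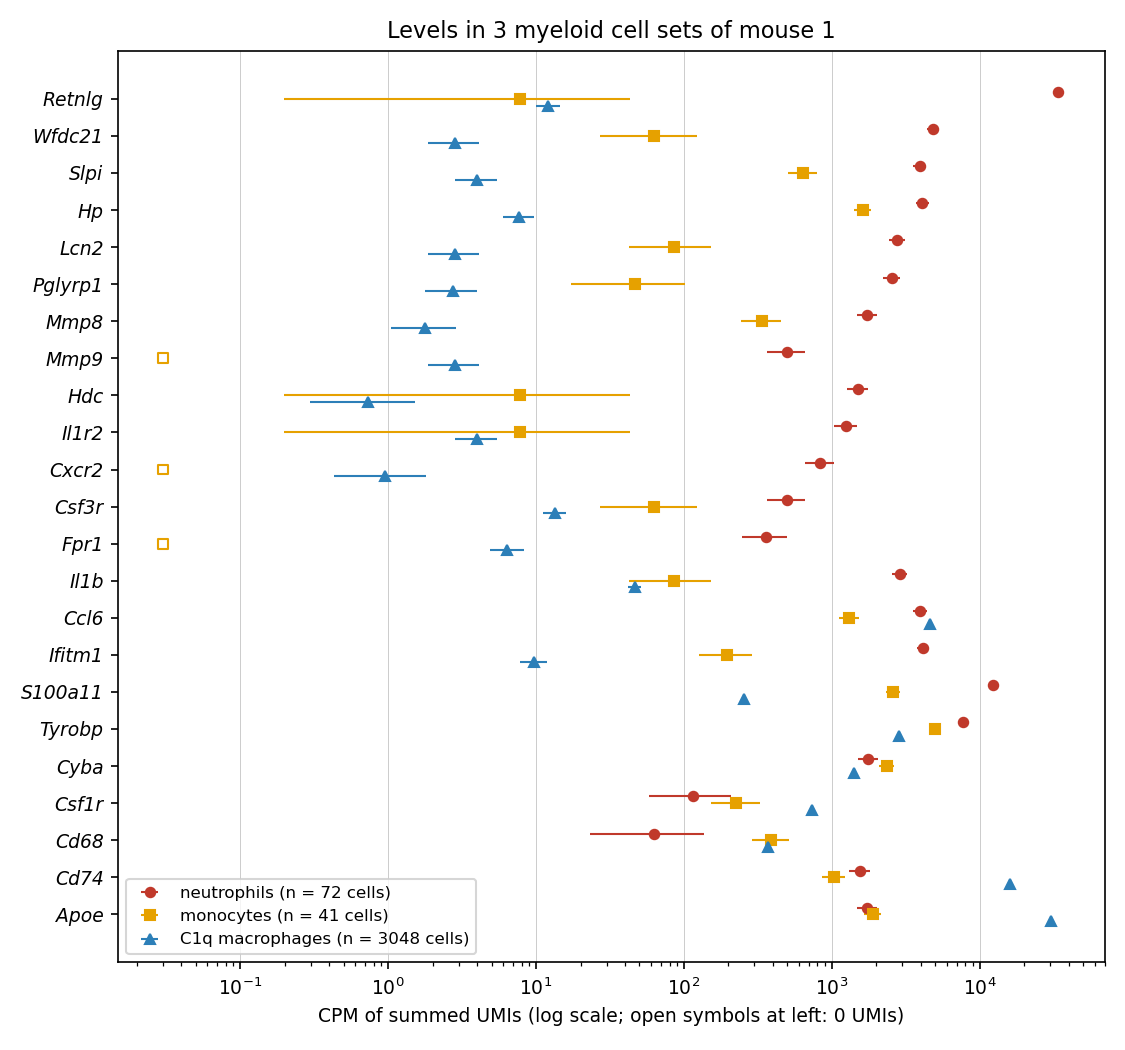
Points are CPM of summed UMIs (log scale) in neutrophils, monocytes and C1q macrophages of mouse 1, with exact Poisson 95% intervals that cover counting error only; open symbols at the left mark sets with 0 UMIs. Neutrophil points lie far right for granule, receptor and mature neutrophil genes, Apoe of neutrophils and monocytes lies together, and Cd74 and Apoe of C1q macrophages lie right of the other sets.

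Receptors by which neutrophils follow chemoattractants were higher for 5 of 9 genes compared with C1q macrophages and 5 of 8 compared with monocytes, with 1 and 0 lower. Cxcr2 was at 832 CPM in neutrophils, 0 in monocytes and 0.95 CPM in C1q macrophages, at least 35.5-fold over monocytes and 879-fold over C1q macrophages (440 to 1994). The formyl peptide receptors Fpr1 and Fpr2, which sense bacterial peptides, were at 358 and 284 CPM in neutrophils, 0 and 15.6 CPM in monocytes, and 6.41 and 17.0 CPM in C1q macrophages. Hcar2, a receptor for nicotinic acid and ketone bodies, was at 168 CPM in neutrophils, 0 in monocytes and 1.37 CPM in C1q macrophages. C5ar1 (complement C5a receptor) was in 37 cells at 611 CPM in neutrophils, 4.89-fold over monocytes (2.77 to 9.11), and was 998 CPM in C1q macrophages. C3ar1 had no UMI in neutrophils, at least 6.59-fold lower than its 208 CPM in C1q macrophages, a bound that did not reach 4-fold with median-of-ratios scaling. Cxcr4, which retains neutrophils in marrow and marks aged ones, had a UMI in 4 of 72 cells. Thinned to 500 UMIs per cell, Cxcr2 was seen in 36.1% of neutrophils in place of 68.1%, so shares of cells for genes of this level depend on depth.

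Genes of adhesion and migration had 6 of 18 higher and 3 lower than in C1q macrophages, and 2 higher and 1 lower of 18 against monocytes. Of all genes compared, 11.9% were higher and 21.5% lower than in C1q macrophages, and 8.0% and 23.7% against monocytes. A list count near these shares, here or below, is no result about its list. Cd177, a neutrophil surface protein that partners proteinase 3, had 16 UMIs in 12 of 72 neutrophils and 2 UMIs in the 3048 C1q macrophages. Cd9, a tetraspanin, was at 1242 CPM in neutrophils, 23.4 CPM in monocytes and 72.1 CPM in C1q macrophages, and Vasp, which extends actin filaments, was at 421, 101 and 72.6 CPM. Selplg, which encodes the selectin ligand PSGL-1, was at 758 CPM in neutrophils, 375 CPM in monocytes and 142 CPM in C1q macrophages, 5.34-fold over C1q macrophages (4.15 to 6.77). Itgb1 had no UMI in neutrophils and 175 CPM in C1q macrophages, at least 5.54-fold lower, a bound that did not reach 4-fold with median-of-ratios scaling.

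The cytokine and chemokine genes were divided. Against C1q macrophages 3 of 16 were at least 4-fold higher and 8 lower (median log2 ratio -1.95), and against monocytes 5 of 11 were higher and 3 lower (1.60). Il1b, which encodes the inflammatory interleukin 1β, was found in 62 of 72 neutrophils (73.6% after thinning, and 1.65% of fibroblasts) with 0 to 15 UMIs a cell. Its level was 2884 CPM in neutrophils, 85.8 CPM in monocytes and 46.3 CPM in C1q macrophages, 33.6-fold over monocytes (18.5 to 68.1) and 62.2-fold over C1q macrophages (53.3 to 72.5). Il1rn, the natural antagonist of the same receptor, was at 221 CPM in neutrophils, 7.80 CPM in monocytes and 9.77 CPM in C1q macrophages. Osm (oncostatin M) was at 221, 39.0 and 21.8 CPM.

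Cxcl2, a ligand of CXCR2 that draws in further neutrophils, was at 600 CPM in neutrophils and 31.2 CPM in monocytes, 19.2-fold (7.11 to 73.0), with a UMI in 22 of 72 cells and at most 7 in any cell. Its ratio over C1q macrophages (165 CPM) was 3.64, and it passed 4-fold with either other scaling. Ccl6 was in 68 cells at 3958 CPM in neutrophils, near the 4640 CPM of C1q macrophages and above the 1303 CPM of monocytes, with both ratios below 4-fold. Ccl4 had 11 of its 21 UMIs in 1 cell. The chemokines that were lower than in C1q macrophages were those of resident macrophages: Ccl12 was at 31.6 CPM in neutrophils and 1200 CPM in C1q macrophages, 38.0-fold lower on 3 UMIs, Pf4 was 24.7-fold lower (15.5 to 42.5), and Ccl8, Ccl7 and Ccl9 were 22.7-, 12.9- and 10.7-fold lower.

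Genes induced by interferon had 4 of 11 higher and 2 lower than in C1q macrophages, and 2 higher and 3 lower of 14 against monocytes. Ifitm1, a membrane protein that blocks virus entry, was in 46 of 72 cells at 4147 CPM in neutrophils, 195 CPM in monocytes and 9.67 CPM in C1q macrophages, 21.3-fold over monocytes (14.2 to 33.3). Slfn4, a schlafen of myeloid cells, was 18.9-fold over monocytes (2.87 to 799) and 127-fold over C1q macrophages (53.8 to 310). Ifitm2 and Ifitm3 were at 6010 and 4010 CPM in neutrophils, 3456 and 7123 CPM in monocytes, and 2558 and 3114 CPM in C1q macrophages, with no ratio past 4-fold. Isg15, the ubiquitin-like interferon product, had 14 UMIs in 10 cells and at most 3 in any cell, so no cell stood out as high for it. Ifit3, another interferon-induced gene, had 6 of its 7 UMIs in cell 51, which had no Isg15 UMI. The NF-κB and inflammation list had 2 of 13 higher and 1 lower than in C1q macrophages and 1 of 13 in each direction against monocytes, and 5 of 13 higher in each comparison with median-of-ratios factors.

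The S100, annexin and actin list had 5 of 19 higher and 1 lower than in C1q macrophages, and 2 higher and 5 lower of 18 against monocytes. Over the 65 cells it had 5 higher and 5 lower of 19 against C1q macrophages, and the same counts as before against monocytes. S100a11 was at 12389 CPM in neutrophils, 2606 CPM in monocytes and 256 CPM in C1q macrophages, 4.75-fold over monocytes (4.21 to 5.38) and 48.5-fold over C1q macrophages (45.2 to 52.0). S100a6 was at 7716 CPM in neutrophils and 4330 CPM in monocytes, which is below 4-fold, and at 583 CPM in C1q macrophages. Anxa1 (annexin A1, which limits neutrophil entry) was 9.93-fold over C1q macrophages (8.002 to 12.2). S100a4 went the other way, with 105 CPM in neutrophils and 1873 CPM in monocytes, 17.8-fold lower (9.51 to 37.6), and so did Tmsb10 (1053 CPM in neutrophils and 8294 CPM in monocytes) and S100a10 (305 and 1834 CPM). These 3 genes came mostly from the deep cells: over the 65 cells S100a4 had 1 UMI, S100a10 none and Tmsb10 11, and the ratios were 140-fold, at least 45.8-fold and 56.5-fold lower. With median-of-ratios scaling over the 72 cells, S100a10 and Tmsb10 did not reach 4-fold.

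Genes of the NADPH oxidase and of redox control had 3 of 13 higher and 1 lower than in C1q macrophages, and none of 12 past 4-fold against monocytes, where median-of-ratios factors gave 3 of 12 higher and the 65 cells gave 1 in each direction. Rac2, the small GTPase that switches the oxidase on in neutrophils, was at 1347 CPM in neutrophils, 523 CPM in monocytes and 204 CPM in C1q macrophages, 6.61-fold over C1q macrophages (5.48 to 7.91). Cyba, the p22phox subunit, was at 1758, 2356 and 1407 CPM, with no ratio past 4-fold. Glycolysis and glycogen genes had 3 of 13 higher than in C1q macrophages and 1 of 13 higher than in monocytes, with none lower. Pygl, which releases glucose from glycogen, was at 316 CPM in neutrophils, 85.8 CPM in monocytes and 3.57 CPM in C1q macrophages, and Taldo1 of the pentose phosphate pathway was 9.23-fold over C1q macrophages (7.68 to 11.03). Slc16a3, a lactate exporter, was the gene past 4-fold in both comparisons. Of 29 oxidative phosphorylation genes, none was higher and 1 and 4 were lower than in C1q macrophages and monocytes, with median log2 ratios of -0.88 and -1.28 close to those of all genes. Over the 65 cells 5 and 11 of the 29 were lower, and with median-of-ratios factors none was.

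Ribosomal protein genes took a small share of neutrophil transcripts. The 97 genes measured made up a median of 3.70% of a neutrophil's UMIs, against 20.1% in monocytes and 13.5% in C1q macrophages. With S100a8 and S100a9 left out of the totals, their share of summed UMIs was 7.46% in neutrophils, 20.5% in monocytes and 13.9% in C1q macrophages, so the share was lower in neutrophils on both totals. The 7 deepest neutrophils had a median of 10.1%, and the other 65 had 3.60%. The 2 neutrophils of mouse 2 had a median of 5.00%. Over the 72 cells this share ran against the share of UMIs taken by S100a8 plus S100a9 (Spearman rho -0.45). Both are parts of 1 total. The 72 include the 7 deepest cells, and a rho over the other 65 alone is not given.

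Among transcription factors 3 of 20 were higher and 8 lower than in C1q macrophages, and 1 higher and 4 lower of 16 against monocytes. Maf, a factor of macrophage identity, was at 42.1 CPM in neutrophils and 585 CPM in C1q macrophages, 13.9-fold lower (5.42 to 51.0). Irf8, which favours monocytes over granulocytes, was 8.52-fold lower than in monocytes (2.11 to 74.6) and 7.49-fold lower than in C1q macrophages (2.07 to 61.9), with 2 UMIs in the 72 cells. Zeb2 was 12.2-fold lower than in monocytes (5.00 to 38.4). Spi1, which encodes PU.1, and Cebpb, which encodes a C/EBP factor of emergency granulopoiesis, were at 1032 and 1084 CPM in neutrophils, 640 and 866 CPM in monocytes, and 436 and 691 CPM in C1q macrophages, with no ratio past 4-fold.

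Genes of chromatin and the nuclear envelope had 4 of 12 higher and 1 lower in both comparisons. Lmnb1 (lamin B1) was at 421 CPM in neutrophils, 62.4 CPM in monocytes and 16.5 CPM in C1q macrophages, while Lmna (lamin A/C) was at 10.5, 109 and 323 CPM. Lmnb1 was thus 6.75-fold higher than in monocytes (3.11 to 16.7) and Lmna 10.4-fold lower (1.58 to 439); low lamin A/C is a known property of the soft, lobed granulocyte nucleus. The single Lmna UMI lay outside the 65 cells, where the bound on its ratio to monocytes was 2.73-fold. Padi4, which citrullinates histones when nuclear traps are released, had 14 UMIs in 13 cells, 4.72-fold over monocytes (1.48 to 19.7). Of the cell cycle list 6 genes were compared: Tuba1b and Tubb5 (tubulins) and Stmn1 were lower in both comparisons, with 2, 4 and 0 UMIs in neutrophils, and the calls for Stmn1 did not reach 4-fold with either other scaling. Mki67 had 1 UMI in the 72 cells.

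Genes of survival and growth arrest had 2 of 9 higher and 2 lower than in C1q macrophages, and 1 of 8 in each direction against monocytes. Gadd45a, a stress-induced gene of growth arrest, was at 453 CPM in neutrophils, 23.4 CPM in monocytes and 6.62 CPM in C1q macrophages, 19.3-fold over monocytes (6.19 to 97.4). Btg1, an antiproliferative gene, was in 62 of 72 cells and 7.37-fold over C1q macrophages (6.35 to 8.53). Mcl1, on which neutrophil survival depends, was at 537 CPM in neutrophils, 218 CPM in monocytes and 254 CPM in C1q macrophages, with no ratio past 4-fold. Immediate early genes, which dissociation can induce, had none of 16 higher and 4 lower than in C1q macrophages (Dusp6, Klf4, Jun and Egr1), and none of 14 past 4-fold against monocytes, where their median log2 ratio was 1.02 against -1.03 over all genes. With median-of-ratios factors none of the 16 was lower and 8 of the 14 were higher. Fos was at 1221 CPM in neutrophils, 1217 CPM in monocytes and 1629 CPM in C1q macrophages. A list of genes known from SiglecF-positive neutrophils of injured mouse hearts had none higher in either comparison. It had 5 of 12 lower than in C1q macrophages, where 21.5% of all genes compared were lower. Against monocytes 2 of 10 were lower, near the 23.7% of all genes. With S100 left out of the totals 1 of 12 was higher and 4 lower than in C1q macrophages, and with median-of-ratios factors 2 and 3. Over the 65 cells 6 of 12 and 5 of 11 were lower, where 493 of 1636 and 523 of 1688 of all genes compared were lower. Siglecf itself was at 0.

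Antigen presentation genes of class II were lower than in C1q macrophages for 8 of 8 compared, a count of 6 with totals that left S100 UMIs out, with median-of-ratios factors, or over the 65 cells. Against monocytes none of 5 was past 4-fold (median log2 ratio 1.00, and -0.27 with 1 of 5 lower over the 65 cells), and 3 of 5 were higher with median-of-ratios factors. Cd74 (invariant chain) was at 1547 CPM in neutrophils and 16137 CPM in C1q macrophages, 10.4-fold lower (8.87 to 12.3), and 52.6-fold lower over the 65 cells, which held 23 of its 147 UMIs. Class I genes were close between the sets: H2-D1 was at 3263 CPM in neutrophils, 2036 CPM in monocytes and 3324 CPM in C1q macrophages, and 1 of 10 genes was lower in each comparison, against 2 and 3 of 10 over the 65 cells. Among Fc, complement and pattern receptors 3 of 22 were higher and 4 lower than in C1q macrophages, and 2 of 21 in each direction against monocytes, with 7 of 22 and 6 of 21 higher under median-of-ratios factors. Fcer1g and Tyrobp, the shared signalling adaptors, were in all 72 neutrophils. Trem1, which amplifies inflammation, was at 179 CPM in neutrophils, 31.2 CPM in monocytes and 0.63 CPM in C1q macrophages, and Fcgr1, the high-affinity IgG receptor, was 13.3-fold lower than in monocytes (3.43 to 114) and 9.34-fold lower than in C1q macrophages (2.58 to 77.2).

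**Figure D4:**
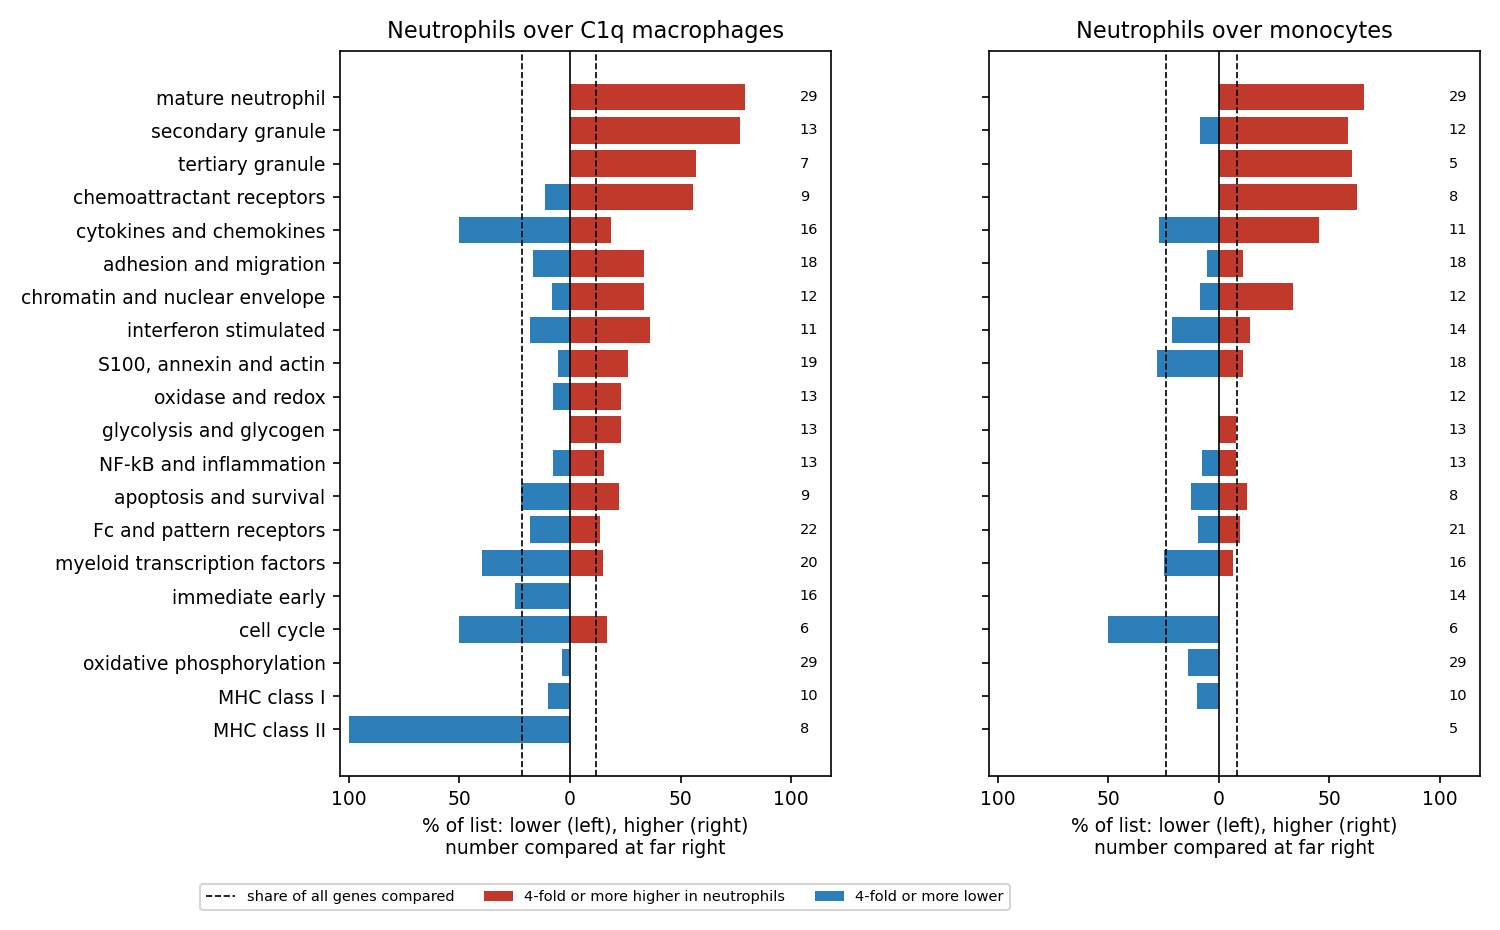
Bars give the percent of each gene list at least 4-fold higher (right) or lower (left) in neutrophils than in C1q macrophages and monocytes of mouse 1, with the number of genes compared at the far right. Dashed lines mark the same shares over all genes compared (11.9% and 21.5%, and 8.0% and 23.7%); the bars of mature neutrophil, granule and chemoattractant receptor genes extend well past the right line, and MHC class II reaches 8 of 8 lower in the left panel.

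The largest ratios over all genes included a few genes not yet described. Il1f9 (interleukin 36γ) had 42 UMIs in 31 of 72 neutrophils and 1 UMI in 3048 C1q macrophages, a ratio of 4207 (715 to 170093). Mrgpra2b, a neutrophil receptor of the Mas-related family, had 24 UMIs in 20 cells and 1 in C1q macrophages, and Asprv1, a retroviral-like aspartic protease, 60 UMIs in 25 cells and 4 in C1q macrophages. Against monocytes, Cd33 (a sialic acid-binding lectin) was 41.1-fold higher (10.9 to 347). Among the largest deficits against C1q macrophages were Mgl2 (a macrophage lectin, 84.9-fold, 15.2 to 3354), Fcgrt (the IgG recycling receptor, 70.1-fold, 12.6 to 2771) and Lgmn (legumain, a lysosomal protease, 46.8-fold, 12.9 to 386). Among those against monocytes were Ms4a4c (100-fold, 17.7 to 3981), Vcan (versican, 30.4-fold, 5.16 to 1229) and Pycard (the inflammasome adaptor ASC, 23.5-fold, 8.97 to 87.7). These deficits rest on 1 to 4 UMIs in neutrophils, and their intervals are wide.

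The 2 neutrophils of mouse 2 carried Retnlg and other neutrophil genes. The first had 1077 UMIs, 199 of S100a8, 144 of S100a9 and 32 of Retnlg, with 5 each of Il1b and Lcn2, 4 of Mmp9, 3 of Ly6g and 2 of Cxcr2. The second had 927 UMIs, 144 of S100a8, 91 of S100a9 and 4 of Retnlg, with 7 of Il1b, 4 of Cxcl2, 3 of Lcn2 and 2 of Mmp9. Both had no UMI of Ngp, Camp, Ltf, Csf1r or Fabp4. Both also had none of Wfdc17, a small secreted protein gene found in 66 of the 72 cells of mouse 1 with a median of 7 UMIs, and none of Ifitm1. With 2004 UMIs between them, 1 UMI is 499 CPM, so levels were not compared.

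S100a8 and S100a9 UMIs also appeared in other cells, and more so in the mouse with more neutrophils. In mouse 1, 27.1% of C1q macrophages (25.6 to 28.7), 22.1% of fibroblasts (20.2 to 24.1) and 18.1% of endothelial cells (14.7 to 21.9) had at least 1 such UMI, against 1.56%, 0.624% and 0.926% in mouse 2. These sets were chosen with fewer than 50 S100 UMIs per cell. Their summed level was 106, 114 and 99.9 CPM in mouse 1 and 9.16, 2.43 and 4.95 CPM in mouse 2. The neutrophils of mouse 1 had 254058 CPM. Without that limit the 3 sets had 440, 497 and 538 CPM in mouse 1. With the limit on the other sets, mouse 1 gave, per 100 S100 UMIs, 13.3 of Retnlg in neutrophils and 11.4 in C1q macrophages. Fibroblasts gave 10.8 and endothelial cells 17.0. Monocytes of mouse 1, under the same limit, had 390 CPM (290 to 514), from 50 S100 UMIs, 15 of them in 1 cell. S100a9 gave 5 of these 50, or 10.0% of the pair. It was 42.0% in neutrophils, 43.6% in C1q macrophages, 45.0% in fibroblasts and 35.1% in endothelial cells. The Retnlg level of these monocytes, 2.0 per 100, was 1 UMI. Without the limit the monocyte set took in cells 57 and 66, and its 43 cells held 451 S100 UMIs, or 3351 CPM. The exact interval of the Retnlg share of the UMIs of the 3 genes in the monocytes under the limit was 0.0496 to 10.4%. It rests on that 1 UMI and overlaps the 8.55 to 12.2% of C1q macrophages, so it does not tell the sets apart. The source of the S100 UMIs in each set was not tested. For genes other than these 3, stray UMIs in other cells were not tested in this way, and Ly6g and Gm5483 had no UMI in the 3048 C1q macrophages.

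**Figure D5:**
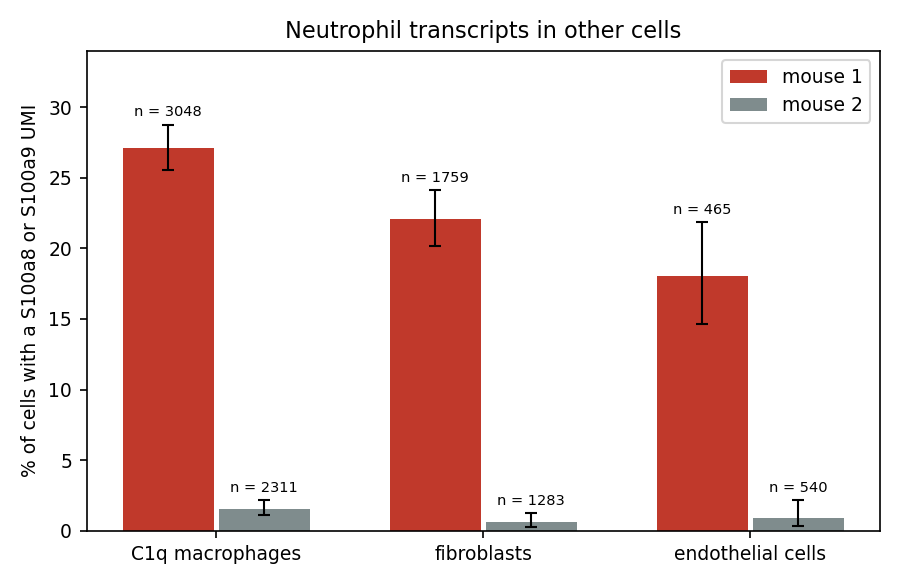
Bars give the percent of C1q macrophages, fibroblasts and endothelial cells with at least 1 S100a8 or S100a9 UMI (fewer than 50 in all), with exact 95% binomial intervals and the number of cells. All 3 shares of mouse 1, which had 72 neutrophils, lie above 18%, and those of mouse 2, which had 2, lie below 2%.

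Transcripts of other cell types were found in the neutrophils at low level. The macrophage list gave 248 UMIs over 14 of 17 genes, or 2610 CPM, against 44350 CPM in C1q macrophages, and Apoe was in 63 of 72 neutrophils at 1726 CPM, against 30218 CPM in C1q macrophages. The endothelial list gave 273 UMIs or 2874 CPM in neutrophils, against 320 CPM in monocytes and 867 CPM in C1q macrophages. The 7 deepest cells held 166 of those UMIs, and the other 65 were at 1427 CPM. The list had Tie1, Cldn5 and Icam2 at 0, and the fibroblast list 83 UMIs or 874 CPM, with Col1a1, Col1a2, Pdgfra, Tcf21 and Fbln1 at 0. The monocyte list gave 154 UMIs or 1621 CPM, against 9238 CPM in monocytes, with Cx3cr1 at 0, and the 65 cells were at 1027 CPM. Cardiomyocyte genes were at 800 CPM in neutrophils, 398 CPM in monocytes and 878 CPM in C1q macrophages. The monocyte set held 57 UMIs of the T and NK list, 37 of them Ccl5 in 1 cell. The part of these transcripts in the ratios above was not tested.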

How the data were processed

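Per the labels' protocols, ventricular non-myocytes were sorted as live and sequenced with the 3' droplet kit of version 2; per the submitters' processing notes, FastQC and Cell Ranger 2.2.0 were used with mm10. The deposited files hold whole-number UMI counts per gene and barcode, not normalized; how barcodes were chosen is not given in the sources used here. Members and gene lists were chosen with earlier results of these data known. Counts were summed per cell set of mouse 1 and scaled to CPM. Ratios have exact binomial 95% intervals, and levels exact Poisson ones, for counting error only. The planned edgeR fit with mouse as a block needed 10 neutrophils in each mouse and was not run, as mouse 2 had 2. Genes named were S100a8, S100a9 and Retnlg; per list, from up to 5 of highest CPM and up to 5 past 4-fold in each direction; and, over all genes, from the 12 largest ratios higher and 8 largest lower at 200 CPM or more. Others named, among them the genes of the 7 deepest cells, were chosen after their values were seen. Cells were thinned to 500 UMIs for shares. Scrublet (scanpy 1.11.5) marked doublets, which were kept. Scripts were checked on simulated data. Fcn1, Jaml, Acod1, Cebpd, Clec7a, Trac, Trbc2, Ighm and Ighd were not analysed here. Some results are not reported here.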

Additional observations from a re-analysis of the deposited data

Results flagged for a closer look

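Some barcodes with the neutrophil transcripts were left out of the comparisons. In mouse 1, 17 barcodes with more than 10% mitochondrial UMIs met every other limit for neutrophils, and in mouse 2 there were 2, as many as its members. All 19 such barcodes of mouse 1 with 50 or more S100a8 plus S100a9 UMIs, 2 of which broke another limit, had a median of 259 of them and 15.1% mitochondrial UMIs. They and the other barcodes over the mitochondrial limit held 13.2% of the S100a8 and S100a9 UMIs of mouse 1 and 29.9% of those of mouse 2.

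In mouse 1, 35 barcodes within the mitochondrial limit had 50 or more S100a8 plus S100a9 UMIs and broke the C1q, Dcn or endothelial limit. The 21 over the C1q limit had a median of 3265 UMIs, 186 of the S100 pair and 19 of Retnlg, with a Retnlg UMI in 20 of them. Scrublet marked 12 of those 21, 6 of the 11 that broke the Dcn limit and not the C1q limit, and 0 of the 3 left. Mouse 2 had no such barcode.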

How the results depend on the processing

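The 74 neutrophils remained 74 with S100 minimums of 20 or 100 UMIs, ranged from 63 to 93 under the other limits on UMIs, mitochondrial share and doublets, and fell to 30 with no C1q UMI allowed; leaving out either mouse gave 2 to 72. Against C1q macrophages, 166 genes were lower with median-of-ratios factors, 579 at a minimum of 50 CPM, and 584 were higher and 657 lower with no CPM minimum; single mice ranged from 193 to 368 higher and 16 to 350 lower. Against monocytes, 254 were lower without S100 in the totals, 273 higher and 122 lower with median-of-ratios factors, 211 higher and 625 lower at 50 CPM, and 70 higher after thinning; single mice ranged from 134 to 201 higher and 18 to 397 lower. More or fewer genes compared is what the CPM minimums change; in mouse 2 alone 1 UMI is 499 CPM. The 65 cells under 2000 UMIs were chosen after seeing the data. Over them 206 and 493 of 1636 genes were higher and lower than in C1q macrophages, and 143 and 523 of 1688 than in monocytes. Of 198 named ratios past 4-fold, 20 were lost with S100 left out of the totals, 37 with median-of-ratios factors, 40 of 186 after thinning and 10 of 192 over the 65 cells. In mouse 2 alone the log2 ratio was reversed for Fermt3 (2.16 over C1q macrophages and 1.14 over monocytes, against -2.55 and -2.27 in mouse 1), Hmox1 (2.27 over C1q macrophages, against -2.04) and Tgfb1 (0.87 over monocytes, against -2.43). Mouse 2 had 2 neutrophils with 2004 UMIs between them. Its median log2 ratio of all genes compared was 2.24 over C1q macrophages and 1.46 over monocytes. The cause of the reversals was not tested. After thinning, 73.6% of neutrophils had an Il1b UMI and 36.1% a Cxcr2 UMI. No paired analysis was possible because both mice are in 1 group and no test was run. Depth limits what can be seen: 1 UMI over the 72 cells is 10.5 CPM.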
